A study of Mus musculus with 6 samples.

Results

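Flavonoid sensing and conjugation genes were followed in inguinal fat, a subcutaneous white adipose depot, as 9 genes chosen by name from the 57180 genes of the deposited table. They were the sensor pair Ahr and Arnt, their inhibitors Ahrr and Tiparp, the cytochromes Cyp1a1 and Cyp1b1, and the conjugation and efflux genes Sult1a1, Ugt1a6a and Abcg2. All 9 were found. The samples came from male mice of the genotype WT, 3 given 0.5% hesperidin in a high-fat diet (HEP) and 3 given the high-fat diet without it (HFD), for 12 weeks and under 1 batch label. The high-fat diet was thus common to both groups, and strain and age were not given in the sources used here. Nothing in the labels ties a sample to an animal of its own, so p-values cover the spread between these samples and no more, which may be technical. Abundance was given by the authors as TPM (a share of the library's transcripts, scaled by transcript length), which keeps no read depth, so depth was unknown and no counting interval is given.

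Hesperidin is a citrus flavonoid glycoside whose sugar is removed by gut bacteria, and the freed hesperetin circulates mostly as glucuronides and sulfates. The aryl hydrocarbon receptor, encoded by Ahr, is a cytoplasmic receptor for planar aromatic compounds, many flavonoids among them. Once bound it enters the nucleus, pairs with ARNT and binds DNA at sites with the core GCGTG, and Cyp1a1, Cyp1b1, Ahrr and Tiparp are among its best known targets in mouse and human cells. Sulfotransferases and glucuronosyltransferases attach the groups that make phenols soluble, and transporters such as ABCG2 carry the conjugates out of the cell.

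The stretch before the start of transcription was read for 3 of these target genes, to show where the receptor's core motif lies in genes that report on its activity. The sequences are the 250 bases before the start in the RefSeq promoter table of build GRCm38.p6, written 5′ to 3′ on the strand of the gene, with GCGTG and its reverse complement CACGC in capitals.
Ahrr (chr13:74292332-74292581, minus strand): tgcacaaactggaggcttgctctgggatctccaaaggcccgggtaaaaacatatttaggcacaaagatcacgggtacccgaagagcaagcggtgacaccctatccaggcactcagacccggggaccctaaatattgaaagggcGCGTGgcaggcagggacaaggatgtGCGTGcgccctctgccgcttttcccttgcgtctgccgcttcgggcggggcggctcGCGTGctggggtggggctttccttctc
Cyp1a1 (chr9:57697363-57697612, plus strand): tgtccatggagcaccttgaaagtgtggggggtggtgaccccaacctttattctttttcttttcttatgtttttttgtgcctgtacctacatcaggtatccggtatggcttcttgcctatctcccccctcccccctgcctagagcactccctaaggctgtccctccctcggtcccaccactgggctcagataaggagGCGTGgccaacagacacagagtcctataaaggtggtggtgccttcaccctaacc
Cyp1b1 (chr17:79715062-79715311, minus strand): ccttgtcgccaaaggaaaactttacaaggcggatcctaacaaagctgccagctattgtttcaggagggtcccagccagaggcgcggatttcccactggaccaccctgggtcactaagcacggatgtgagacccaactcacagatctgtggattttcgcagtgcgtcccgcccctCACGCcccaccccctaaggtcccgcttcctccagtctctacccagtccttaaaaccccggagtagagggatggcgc
Ahrr held 3 copies, all reading GCGTG on its own strand, and Cyp1a1 held 1 copy. Cyp1b1 held 1 copy on the opposite strand. Of the 8 members found in that table, 5 had the motif in this window, the other two being Tiparp and Arnt with 1 copy each. Sult1a1, Ugt1a6a and the 3 windows of Abcg2 held no match. On either strand the motif was present in 28.2% of all 32851 promoter windows of this length, and 2.77% held 3 or more copies. A match of these letters is a description of the window and not a binding site shown by these data.

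In this fat depot the 9 genes covered a wide range of levels, with the sulfotransferase gene far above the rest. Sult1a1 ran between 201 and 334 TPM over the 6 libraries and ranked 447th by mean TPM among all genes of the table, and its range did not overlap that of any other member. Abcg2 followed between 30.0 and 44.0 TPM, then Arnt between 25.7 and 38.8 TPM, Ugt1a6a between 19.5 and 31.7 TPM and Tiparp between 17.8 and 26.3 TPM. The ranges of these neighbours overlapped, and Arnt was above Ugt1a6a in 3 of 6 libraries. Cyp1b1 lay between 8.52 and 21.5 TPM, below Tiparp in 6 of 6 libraries although their ranges overlapped, and Ahr between 3.92 and 6.35 TPM, apart from Cyp1b1. At the low end, Ahrr lay between 0.09 and 0.60 TPM and Cyp1a1 between 0.02 and 0.33 TPM, with overlapping ranges.

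**Figure D1:**
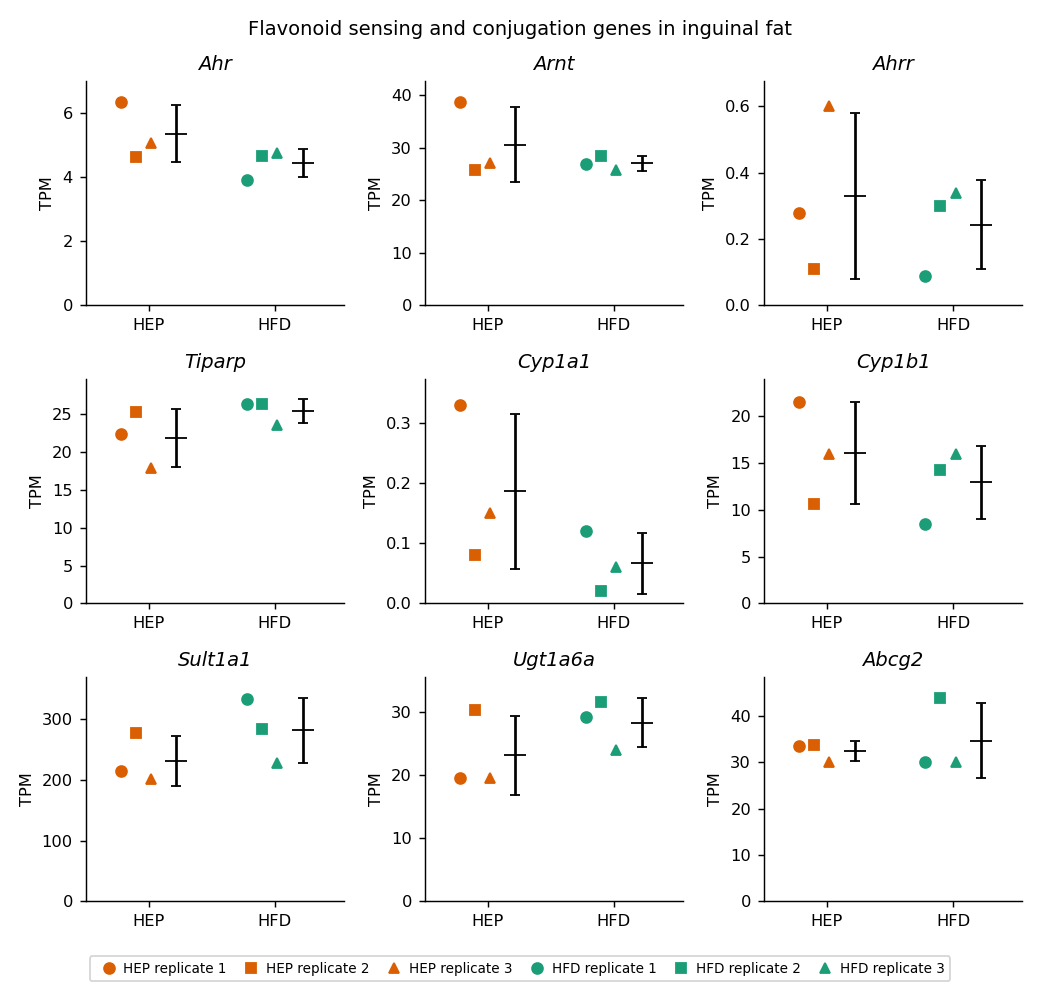
TPM of each of the 9 genes in the 3 HEP and 3 HFD libraries, each panel with its own axis from 0. Symbols mark the replicate, and the bar beside each group is the mean with its SD (n = 3). The groups overlap in every panel.

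The libraries were rich in adipocyte transcripts but differed in other cell content. The 12 adipocyte markers summed to 31367, 50827 and 29372 TPM in HEP replicates 1 to 3 and to 49616, 51473 and 39736 TPM in HFD replicates 1 to 3. The mean log2(TPM + 1) of 20 B, plasma, T and NK cell markers was 6.04, 0.90 and 6.08 in HEP and 0.83, 1.03 and 5.36 in HFD, so HEP replicates 1 and 3 and HFD replicate 3 were rich in lymphocyte genes and the other three libraries were low. The 10 liver markers summed to 391, 3499 and 288 TPM in HEP and to 2365, 313 and 447 TPM in HFD. Outside HEP replicate 2 and HFD replicate 1, most of that sum was Cyp2e1. It had 378, 597 and 189 TPM in HEP and 474, 250 and 324 TPM in HFD. Alb, another of the liver markers, had 9.2, 1024 and 39.3 TPM in HEP and 664, 27.5 and 48.8 TPM in HFD. The 10 skeletal muscle markers summed to 1483, 12967 and 60.6 TPM in HEP and to 191, 622 and 88.6 TPM in HFD. Of 8 keratinocyte and epithelium markers, Krt5 and Krt14 reached at most 0.27 TPM and Krt1 at most 0.09 TPM. Krt10 lay between 3.39 and 6.15 TPM, and Krt8, Krt18, Epcam and Cdh1 reached 3.49, 3.11, 2.65 and 1.7 TPM. In bulk tissue, fewer cells of a type and less RNA per cell cannot be told apart.

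The comparison of HEP with HFD asked how hesperidin on a high-fat diet altered these genes in fat. None of the 7 members that reached a mean of at least 1 TPM passed the test, in either direction, and the HEP and HFD values overlapped for all 9. Ahr, Arnt and Cyp1b1 had the higher HEP mean and Tiparp, Sult1a1, Ugt1a6a and Abcg2 the lower one, by log2 fold changes between -0.30 and 0.28. The test was limma on log2(TPM + 1) over 15446 genes with Benjamini-Hochberg adjustment and a threshold of 0.05. Its adjusted p-values for the 7 members lay between 0.879 and 0.931. Of all genes tested, 0 passed (0%), 279 (1.81%) had an unadjusted p under 0.05 and 5.46% had groups that did not overlap, 1.88% with HEP higher and 3.58% with HEP lower. The members gave 0 by each of these measures. Fold changes on this scale understate those of low genes, and the 95% intervals of the 7 differences, which all contain 0, were between 0.84 and 1.60 wide on the log2 scale.

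Ahr, the receptor itself, had 6.35, 4.63 and 5.07 TPM in HEP and 3.92, 4.64 and 4.75 TPM in HFD. HEP replicate 1 was the highest library and HFD replicate 1 the lowest, while HEP replicate 2 lay 1 step of the table's rounding below HFD replicate 2. The log2 fold change was 0.22 ± 0.21 (SE; limma unadjusted p = 0.335, adjusted p = 0.879). It was 0.11 without HEP replicate 1 and 0.03 with quantile normalization. Arnt, the partner that Ahr shares with the hypoxia factors, had 38.8, 25.8 and 27.1 TPM in HEP and 27.0, 28.4 and 25.7 TPM in HFD. HEP replicate 1 was the only HEP library above the HFD range, and the other two HEP libraries lay within it. Its log2 fold change was 0.15 ± 0.19 (SE; limma adjusted p = 0.879), and -0.03 without HEP replicate 1. On the length-scaled TPM, the Arnt level was between 5.35 and 6.88 times the Ahr level in all 6 libraries.

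The inhibitors differed in level, Ahrr being near the floor and Tiparp in the middle of the members' range. Ahrr encodes a repressor that competes with AHR for ARNT. It had 0.28, 0.11 and 0.60 TPM in HEP and 0.09, 0.30 and 0.34 TPM in HFD, too low to be tested, with HEP replicate 3 above all HFD values and the other two HEP libraries within the HFD range. Tiparp encodes an ADP-ribosyltransferase that is induced by AHR and shuts it down. It had 22.4, 25.4 and 17.8 TPM in HEP and 26.3, 26.3 and 23.6 TPM in HFD. HEP replicate 3 was the lowest library, and HEP replicate 2 lay among the HFD values. The log2 fold change was -0.22 ± 0.17 (SE; limma unadjusted p = 0.25, adjusted p = 0.879), and -0.09 without HEP replicate 3.

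Of the cytochromes, Cyp1b1 was expressed and Cyp1a1 was close to the table's resolution. Both encode monooxygenases that oxidise polycyclic aromatic compounds and flavonoids, and Cyp1a1 is the standard readout of AHR activation. Cyp1a1 had 0.33, 0.08 and 0.15 TPM in HEP and 0.12, 0.02 and 0.06 TPM in HFD, in a table given to 2 decimals. The highest value was HEP replicate 1, and HFD replicate 1 lay between the HEP values, so the groups overlapped. It was under the level required for the test. Cyp1b1 had 21.5, 10.6 and 15.9 TPM in HEP and 8.52, 14.2 and 16.0 TPM in HFD. It varied most of the 7 tested members, with an SD of log2(TPM + 1) of 0.44 over the 6 libraries, and the lowest library was HFD replicate 1, followed by HEP replicate 2. Its log2 fold change was 0.28 ± 0.33 (SE; limma unadjusted p = 0.424, adjusted p = 0.879), and 0.03 without HFD replicate 1.

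Sult1a1, the phenol sulfotransferase that conjugates many flavonoids, was the most abundant member in every library. It had 215, 278 and 201 TPM in HEP and 334, 284 and 228 TPM in HFD. HEP replicate 2 lay between HFD replicates 2 and 3, and the other two HEP libraries were below all HFD libraries. The mean was 231 ± 40.8 TPM in HEP and 282 ± 53.2 TPM in HFD (SD, n = 3 each), a log2 fold change of -0.28 ± 0.21 (SE; limma unadjusted p = 0.219, adjusted p = 0.879). It was -0.15 without HFD replicate 1 and -0.43 without HFD replicate 3. The gene accounted for 94.2%, 86.5% and 96.3% of the summed TPM of the 27 genes of the table with a SULT family name in HEP and for 92.9%, 93.8% and 96.2% in HFD. Its share was lowest in HEP replicate 2, the library with the most liver and the most skeletal muscle transcripts. Sult1a1 is also expressed in liver, and the library with the most Sult1a1, HFD replicate 1, held 2365 TPM of liver markers, the second highest sum. HEP replicate 2, with the highest liver sum of 3499 TPM, had less Sult1a1 than HFD replicate 2, whose liver sum was 313 TPM. The part of liver transcripts in the Sult1a1 level was not tested. In the GENCODE M21 annotation the gene overlaps Sgf29 on the opposite strand, which had a mean of 25.2 TPM, and whether the libraries kept strand is not stated.

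Ugt1a6a, a glucuronosyltransferase for phenols, had 19.6, 30.4 and 19.5 TPM in HEP and 29.2, 31.7 and 24.1 TPM in HFD. HEP replicates 1 and 3 were below all HFD libraries and HEP replicate 2 was within their range. The log2 fold change was -0.30 ± 0.22 (SE; limma unadjusted p = 0.228, adjusted p = 0.879). Without HEP replicate 2 it was -0.50 (limma unadjusted p = 0.0284, adjusted p = 0.207), a fit in which 3683 genes had an unadjusted p under 0.05. That fit keeps HEP replicates 1 and 3, both rich in lymphocyte genes, against HFD libraries of which only replicate 3 was rich. Diet and lymphocyte content are thus largely mixed in it, and the part of each was not tested. The UGT1A genes of mouse share their last exons and differ in the first, so reads of the shared exons were divided among them by the authors' estimate and single values are uncertain. Summed over the 9 UGT1A genes of the table, the level was 50.2, 83.2 and 49.3 TPM in HEP and 78.5, 91.7 and 62.8 TPM in HFD. Ugt1a6a made up between 34.5% and 39.6% of that sum in every library.

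Abcg2 encodes an efflux pump for sulfate and glucuronide conjugates. It had 33.5, 33.8 and 30.0 TPM in HEP and 30.0, 44.0 and 30.0 TPM in HFD. HFD replicate 2 was the highest library and the other five lay close together. The log2 fold change was -0.07 ± 0.19 (SE; limma unadjusted p = 0.717, adjusted p = 0.931), and 0.11 without HFD replicate 2.

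Lymphocyte content separated 5 of the 9 members without overlap, and diet separated 0. This division of libraries was known from an earlier analysis of the same data, and it is described here without a test. Ahr and Cyp1b1 were higher in all 3 lymphocyte-rich libraries than in all 3 low ones, and Tiparp, Sult1a1 and Ugt1a6a were lower in all 3 rich ones. Sult1a1 had 215, 201 and 228 TPM in the rich libraries HEP1, HEP3 and HFD3 and 278, 334 and 284 TPM in the low libraries HEP2, HFD1 and HFD2. Ugt1a6a had 19.6, 19.5 and 24.1 TPM in the rich libraries and 30.4, 29.2 and 31.7 TPM in the low ones. These 5 of 7 tested members compare with 44.1% of all tested genes, 30.5% being higher and 13.7% lower in the rich libraries, so that such a split was common in these data. Adipocyte markers were lower in the same rich libraries by their summed TPM and by their mean log2(TPM + 1), though not each marker was. The part of lymphocyte or adipocyte content in the members' levels was not tested. Within the low libraries the log2 fold changes were -0.15 for Sult1a1 and 0.0007 for Ugt1a6a, and within the rich ones -0.13 and -0.29, each from an arm of 1 library.

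The profiles nearest to the 3 most variable tested members were found over the 6 libraries, as the root mean square difference of centred log2(TPM + 1) among 12990 other protein-coding genes. For Cyp1b1 they were Zc3h10 (0.052), Tiam1 (0.075) and Nab2 (0.081). For Ugt1a6a they were Ndufs6 (0.028), Gcsh (0.032) and Hmgcs1 (0.035), and for Sult1a1 they were Hnmt (0.034), Ptgfr (0.047) and Mnd1 (0.051). With 6 libraries, small differences of this kind are common among many genes.

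The other genes of the pathway were described in 8 lists by function, together 101 genes, of which 69 reached the level required for the test. In each direction 0 of the 69 passed, the median log2 fold change was 0.03, against 0.07 over all genes tested, and 1 gene had an unadjusted limma p under 0.05, against 1.81% of all genes tested. The groups did not overlap for 3 of the 69, all lower in HEP, against 3.58% of all genes tested, so neither count stood out from the background. The HEP mean was the higher one for 37 of the 69 and, over all genes tested, for 58.6%. That share is the one to set beside the counts by direction given for each list. All these counts compare means of log2(TPM + 1), whose direction can differ from that of mean TPM.

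Among the chaperones and partners of the receptor, 7 of 10 tested genes were higher in HEP by their mean, and the list median was 0.10 on the log2 scale. Hsp90ab1, the chaperone that holds AHR in the cytoplasm, had the highest level of the list, with 527, 432 and 514 TPM in HEP and 409, 473 and 496 TPM in HFD. Epas1, a hypoxia factor that also pairs with ARNT, had 114, 129 and 102 TPM in HEP and 115, 162 and 117 TPM in HFD.

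Other AHR targets and the enzymes that form its tryptophan-derived ligands had the highest list median, 0.50, with 8 of 9 tested genes higher in HEP by their mean. Of these 9, 4 were higher in all 3 lymphocyte-rich libraries than in all 3 low ones, and 2 were lower in all 3 rich ones. Over all genes tested these shares were 30.5% and 13.7%. The 4 were the genes above the list median. Some of the list were high in the libraries that stood out for liver markers. Il4i1, an amino acid oxidase that yields AHR ligands and was chosen after its values were seen, had 53.6, 0.53 and 54.1 TPM in HEP and 0.54, 0.89 and 30.4 TPM in HFD, high in the 3 lymphocyte-rich libraries. Cyp1a2, the liver cytochrome of the AHR battery, and Tdo2, the liver enzyme that opens the tryptophan ring, were also chosen after their values were seen. Cyp1a2 had 0.00, 6.77 and 0.41 TPM in HEP and 2.42, 0.04 and 0.08 TPM in HFD, and Tdo2 had 0.87, 25.8 and 0.83 TPM in HEP and 15.6, 1.28 and 0.21 TPM in HFD. Both were highest in HEP replicate 2 and HFD replicate 1, the libraries with 3499 and 2365 TPM of liver markers. Outside these libraries Cyp1a2 stayed below 1 TPM, so it met the level required for the test only through them. The list median, 0.504, was the log2 fold change of Cyp1a2 itself. The part of lymphocyte and liver content in the list's values was not tested. Nfe2l2, the antioxidant factor with AHR sites in its mouse gene, had 57.4, 50.4 and 48.0 TPM in HEP and 44.3, 58.5 and 53.4 TPM in HFD, a log2 fold change of 0.002. Afmid, a kynurenine pathway enzyme, had the smallest p of the list (limma unadjusted p = 0.0755, adjusted p = 0.879). It had 8.36, 4.28 and 8.91 TPM in HEP and 3.51, 2.78 and 5.38 TPM in HFD. Its level was higher in every lymphocyte-rich library than in every low one. Ugt1a6b, the close relative of Ugt1a6a, had 23.6, 34.6 and 22.3 TPM in HEP and 32.6, 50.0 and 29.6 TPM in HFD.

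Other sensors showed 4 of 6 tested genes higher by their mean, with a median of 0.09. The median lay between the values of Keap1 (0.06) and Nr1i3 (0.13), both named after their values were seen. Nr1i3 had 4.45 TPM in HEP replicate 2 and 3.76 TPM in HFD replicate 1, the libraries rich in liver markers. It stayed below 1 TPM elsewhere. Sirt1, a deacetylase often studied with plant polyphenols, had 20.1, 10.2 and 16.7 TPM in HEP and 11.6, 11.0 and 12.8 TPM in HFD. Rxra, the shared partner of nuclear receptors, had 46.3, 53.4 and 34.7 TPM in HEP and 47.6, 57.7 and 48.5 TPM in HFD. The groups overlapped for both Sirt1 and Rxra, and Sirt1 was higher in every lymphocyte-rich library than in every low one.

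Among other glucuronidation genes the HEP mean was higher for 8 of 10 tested, and the list median was 0.21. Ugt1a1, the bilirubin glucuronosyltransferase of liver, and Ugt2b5 were named after their values were seen. Ugt1a1 had 0.61, 10.8 and 0.39 TPM in HEP and 7.93, 0.00 and 0.68 TPM in HFD, and Ugt2b5 had 0.00, 21.9 and 0.84 TPM in HEP and 10.4, 0.30 and 0.62 TPM in HFD. Both were again high in the 2 libraries rich in liver markers and near 0 in the rest. So were Ugt2a3, Ugt2b1, Ugt2b34 and Ugt2b36, also named after their values were seen. Each of these genes stayed below 1 TPM elsewhere, so it met the level required for the test only through these 2 libraries. The list median lay between the values of Ugt2b1 (0.18) and Ugt2b36 (0.24). The part of liver content in the count and the median was not tested. Ugt1a7c, Ugdh and Ugp2 were detected in all 6 libraries. Ugt1a7c, a neighbour of Ugt1a6a at the same locus, had 5.99, 5.49 and 6.27 TPM in HEP, below all of 6.60, 9.27 and 7.81 TPM in HFD (limma unadjusted p = 0.12, adjusted p = 0.879). Ugdh, which makes the UDP-glucuronic acid that all these enzymes use, had 32.4, 42.5 and 27.8 TPM in HEP and 41.3, 41.2 and 33.5 TPM in HFD. Ugp2, one step earlier, had 77.9, 147 and 61.1 TPM in HEP and 81.5, 100.0 and 78.1 TPM in HFD.

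Of the other sulfation and methylation genes 7 of 9 tested had a lower HEP mean, with a median of -0.21. Papss1, which makes the sulfate donor that SULT1A1 consumes, had 24.2, 28.1 and 23.2 TPM in HEP and 27.8, 34.9 and 28.3 TPM in HFD. Only HEP replicate 2 reached into the HFD range (limma unadjusted p = 0.158, adjusted p = 0.879).

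The list of enzymes that remove conjugates, in which the epoxide hydrolase Ephx1 was counted, had 5 of 7 tested genes with a lower HEP mean. Its median was -0.07. Sts, the steroid sulfatase, had 4.27, 4.04 and 2.98 TPM in HEP, below all of 4.38, 4.70 and 4.37 TPM in HFD, with a gap smaller than the spread within HEP (limma unadjusted p = 0.356, adjusted p = 0.879). Lctl, a protein related to lactase, had 29.8, 40.7 and 25.0 TPM in HEP and 40.1, 53.7 and 24.3 TPM in HFD. Ephx1, the epoxide hydrolase that acts on products of the CYP1 enzymes, had 103, 108 and 87.1 TPM in HEP and 74.7, 130 and 91.4 TPM in HFD.

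The list of conjugate transporters, in which the organic cation transporter Slc22a3 was counted, was split. It had 6 of 11 tested genes higher in HEP by their mean and a median of 0.01. Abcb1a, a P-glycoprotein gene, had 8.78, 9.74 and 7.90 TPM in HEP and 8.99, 11.9 and 9.41 TPM in HFD. Slc22a3, an organic cation transporter and the most abundant of the list, had 37.3, 57.4 and 27.5 TPM in HEP and 44.5, 51.4 and 40.9 TPM in HFD.

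The list of P450 redox partners, in which Pgrmc1 and Pgrmc2 were counted, had 7 of 7 tested genes with a lower HEP mean, with a median of -0.29. Cyb5b, the cytochrome b5 of the outer mitochondrial membrane, had 78.1, 78.3 and 83.4 TPM in HEP, all below 102, 140 and 104 TPM in HFD. Its log2 fold change was -0.51 ± 0.16 (SE; limma unadjusted p = 0.019, adjusted p = 0.879), so the difference did not pass over all genes. Cyb5a, the microsomal form and the most abundant of the list, had 505, 757 and 428 TPM in HEP and 725, 805 and 602 TPM in HFD, with HEP replicate 2 within the HFD range. Cyb5r3, the reductase of both, had 113, 162 and 121 TPM in HEP and 158, 206 and 150 TPM in HFD. All 12 adipocyte markers also had a lower HEP mean on the log scale, with a median log2 fold change of -0.38. So did 10 of 10 endothelial, 8 of 8 smooth muscle and pericyte, and 8 of 10 adipose progenitor markers. Higher in HEP were 10 of 10 B and plasma cell, 10 of 10 T and NK cell, and 8 of 9 tested skeletal muscle markers. Cyb5a, Cyb5r3, Pgrmc1 and Pgrmc2 were lower in all 3 lymphocyte-rich libraries than in all 3 low ones. The part of cell content in these values was not tested.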

How the data were processed

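RNA sequencing of inguinal fat was deposited as TPM per gene in 6 samples, made by the authors. Per the submitters' processing notes the tools were DESeq2, fastp, HISAT2, StringTie and RSEM, given with neither version nor role. The genome build used by the authors was not given in the sources used here. TPM keeps no depth, is a share of the library, and depends on how the authors divided shared reads.

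Samples were grouped by title. Genes averaging 1 TPM or more (15446 of 57180) were tested as log2(TPM + 1) in limma 3.58.1 (R 4.3.3) with a variance trend, two-sided, with Benjamini-Hochberg adjustment and a threshold of 0.05, a procedure tested on simulated data first. The members, lists and tests were chosen with earlier results of these data known. All members are named, along with, per list, the 2 genes with the smallest p and the most abundant one, and the 3 nearest profiles of the 3 most variable members, except genes that are not reported here. GENCODE M21 held 51884 of the gene IDs and was used only to find overlapping genes. Promoter sequences came from RefSeq (GRCm38.p6), matched by symbol, and Ahr had no entry. The alternatives were another pseudocount (0.1), 2 filters, 2 normalizations, a replicate block, robust variance, a lymphoid covariate, subsets of libraries and leaving out each library.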

Additional observations from a re-analysis of the deposited data

How the results depend on the processing

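Under 16 alternative settings 0 members and 0 genes of the 8 lists passed. Of 111 estimates for the 7 tested members under them, 105 kept their direction and 6 did not. The 2 filters, the replicate block and robust variance leave the fold change itself unchanged. Their estimates are part of the 105 and could not have changed direction. Within the 3 libraries low in lymphocyte genes Arnt was at -0.10, Cyp1b1 at -0.051 and Ugt1a6a at 0.0007, and within the 3 rich ones Abcg2 was at 0.077; both fits have an arm of 1 library, assumed to vary like the others. With 1 library left out, Arnt ranged between -0.029 (without HEP replicate 1) and 0.26, and Abcg2 between -0.16 and 0.11 (without HFD replicate 2). In the same fits Ahr ranged between 0.11 and 0.30, Tiparp between -0.33 and -0.09, Cyp1b1 between 0.03 and 0.53, Sult1a1 between -0.43 and -0.15 and Ugt1a6a between -0.50 and -0.20. The cause was not tested. The count over all genes ranged between 0 and 1, the 1 gene passing without HEP replicate 2. Quantile normalization moved the median of all genes to -0.06, against 0.07; relative to these medians Sult1a1 was at -0.16 against -0.35, Ugt1a6a at -0.37 under both, and Cyp1b1 at 0.20 against 0.21. With the lymphoid covariate Sult1a1 was at -0.11, Ugt1a6a at -0.11 and Cyp1b1 at 0.02. With the replicate block 0 genes passed, and 576 genes against 279 had an unadjusted p under 0.05; deviations of same-numbered libraries correlated at -0.36, 0.37 and 0.65, so the numbers were not taken as pairs. The low levels of Ahrr and Cyp1a1 and the unknown depth leave their differences unresolved.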
